A study of Triticum aestivum with 161 samples.

Results

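The 81 probe sets described here were higher in developing wheat grain from plots given 350 kg of nitrogen per ha (N350) than in grain from plots given 100 kg per ha (N100). They were chosen by these measured values: at Rothamsted in 2009 and 2010 the difference between the group means of N350 and N100 was taken in 12 pairs, 6 cultivars in each of 2 seasons, and a probe set was kept when the mean difference was at least 0.5 on the log2 scale, at least 10 pairs were above 0 and the mean over all arrays was at least 6. Affymetrix control probe sets were left out, as were 6 ID prefixes that mark endosperm serpins, an alpha gliadin cluster and a gamma gliadin. Of 61178 probe sets on the array 24406 had a mean of at least 6, called the brighter probe sets below, and 85 of these (0.348%) met the rule on size and sign before 4 were dropped by their prefix. Since the N350 minus N100 difference picked the probe sets, it is described below without a test, in the seasons and cultivars too.

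Total RNA came from whole caryopses of Triticum aestivum, bread wheat, harvested 21 days after anthesis (flowering) from heads tagged in field plots, with 1 array per plot. The cultivars were Cordiale, Hereward, Istabraq, Malacca, Marksman and Xi_19. Rothamsted was sampled at N100, at 200 kg per ha (N200) and at N350 in 2009 (53 arrays) and 2010 (54 arrays), and at N200 alone in 2011 (18 arrays), whereas the RAGT site was sampled at N200 in 2010 and 2011 (18 arrays each). The 161 arrays make 54 groups, each with 3 plots except Malacca at N200 in Rothamsted in 2009, which had 2. No plot went without nitrogen, so N100 is the lowest supply here and not an unfertilized control.

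Nitrogen taken up by the crop is moved to the grain, where the starchy endosperm stores most of it as gluten proteins, the gliadins and glutenins. Transcripts of storage proteins build up during grain filling under transcription factors that bind their promoters, and their amounts are known to follow nitrogen and sulphur supply. A caryopsis also holds the aleurone, the embryo and the outer pericarp, and an array of whole grain sums over all of them. A lower level in such a sample may come from fewer cells of a type or from less RNA in each cell, and these cannot be told apart.

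The levels are the authors' log2 signals. Values ran from 1.59 to 15.06 over all arrays, and the root mean square distance of an array to the mean of its group, over probe sets, was between 0.07 and 0.34. It was over 0.3 on 5 arrays, all from Rothamsted in 2009. The difference between 3' and 5' probe sets of the actin control, a sign of RNA length, averaged between 0.11 and 0.21 at each nitrogen level at Rothamsted in 2009 and 2010, 0.34 at RAGT in 2010, and 0.49 at Rothamsted and 0.54 at RAGT in 2011. The same difference in the gapdh control averaged between -3.22 and -3.09 at Rothamsted in 2009 and between -2.89 and -2.81 in 2010. It was -2.86 at RAGT in 2010, and -2.56 at Rothamsted and -2.59 at RAGT in 2011. The part of either control's shift in the nitrogen, site and season results was not tested. Markers of the starchy endosperm were gliadins, the glutenin Glu-D3 and the starch synthase gene Wx-A1. The mean over their 12 probe sets was high on every array, between 11.55 and 12.75. Single probe sets were lower, with a mean over all arrays of 4.66 for one of Glu-D3 and 7.58 for one of a gamma gliadin.

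The annotation gave a gene entry to 4 of the 81 probe sets and none to the other 77. The entries were LOC542918 (Ta.9402.1.S1_at and Ta.9402.1.S1_x_at), LOC543201 (Ta.5024.1.S1_x_at) and LOC543150 (Ta.21350.2.S1_at), and no name or role came with them. The rest are therefore given by their ID, of which 61 began with Ta. and 20 with TaAffx. A number shared after the prefix marks probe sets drawn from one sequence cluster of the array's design. The 81 probe sets fell into 67 such clusters, of which 3 held 3 members and 8 held 2, so that 25 members shared a cluster and may measure related transcripts. By their suffix, 22 (_x_at) and 6 (_s_at) were designed with probes that can match other sequences, and cross-hybridisation was not tested.

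Mean levels over all arrays ran from 6.01 to 13.73 with a median of 8.18. The mean was at least 12 in 11 probe sets and below 8 in 36. The nitrogen difference ran from 0.50 to 1.49 with a median of 0.61, was at least 1 in 11 probe sets, which is at least 2-fold, and below 0.6 in 36. It was above 0 in all 12 pairs for 51 probe sets, in 11 for 18 and in 10 for 12. Just inside the threshold were Ta.12333.1.A1_at at 0.503 and Ta.21213.1.S1_a_at at 0.506. Just outside were Ta.28265.1.S1_at at 0.499 and Ta.24542.1.S1_at at 0.498, both above 0 in all 12 pairs, so the set has no natural edge at 0.5.

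**Figure D1:**
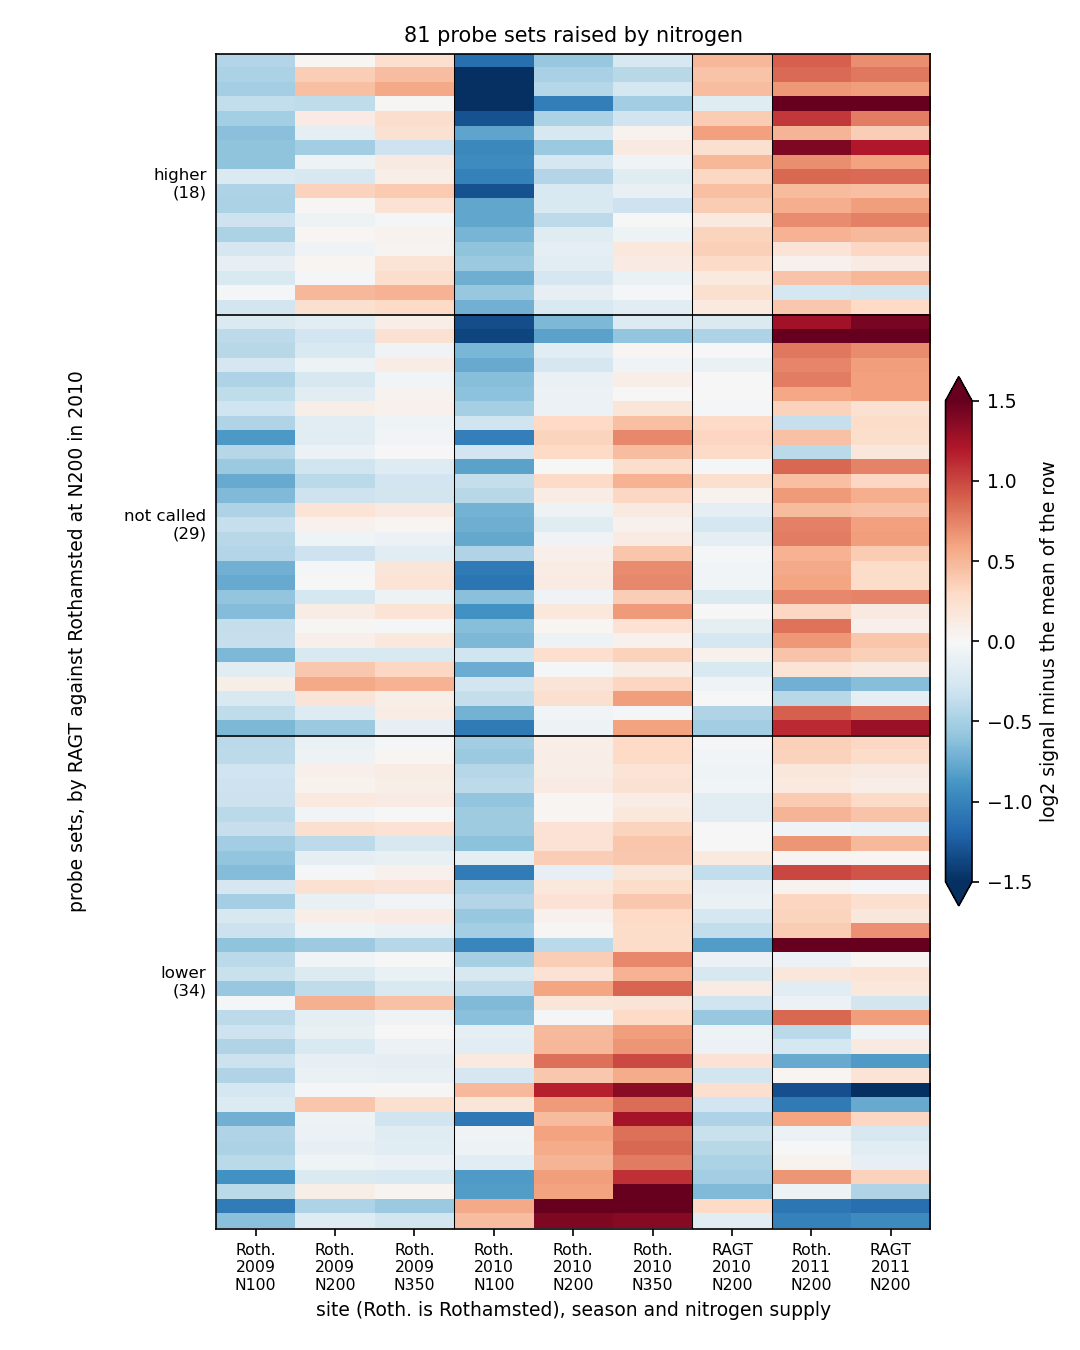
Heat map of the mean log2 signal of each of the 81 probe sets (rows) in 9 combinations of site, season and nitrogen supply (columns, each the mean of 6 cultivar groups), as deposited and centred on the mean of the row; rows are grouped by whether RAGT was higher (18), not called (29) or lower (34) than Rothamsted at N200 in 2010, and the colour scale ends at 1.5 in either direction. The Rothamsted N100 column lies below the N350 column of the same season in all 81 rows, and the groups of rows were formed by the RAGT 2010 column against the Rothamsted N200 column of that year.

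The largest mean difference was in Ta.13191.3.S1_x_at, at 1.49 or 2.82-fold. Its arrays at Rothamsted in 2010 ran from 5.22 to 6.91 (median 5.88) at N100 and from 6.13 to 10.89 (median 8.59) at N350, with a median of 7.32 at N200. In 2009 they ran from 5.51 to 7.53 (median 6.30) at N100 and from 5.86 to 8.40 (median 6.79) at N350. The arrays of the nitrogen levels overlapped in both seasons, far more in 2009, and the pairs ran from -0.31 to 3.75 with the highest in Marksman in 2010. In that group the 3 plots gave 10.89, 8.89 and 8.85, against 6.21, 5.95 and 5.22 at N100.

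The 3 probe sets of the cluster Ta.28750 were among the 10 largest and above 0 in all 12 pairs, at 1.39 (Ta.28750.1.S1_at), 1.33 (Ta.28750.1.S1_x_at) and 1.20 (Ta.28750.2.A1_x_at). For Ta.28750.1.S1_at in 2010 the arrays ran from 5.77 to 8.86 (median 6.67) at N100 and from 7.86 to 10.52 (median 8.51) at N350. In 2009 they ran from 5.38 to 9.03 (median 7.28) and from 6.47 to 9.99 (median 8.04). Overlap between the nitrogen levels came with a wide spread between cultivars: in 2010 the Xi_19 plots were the highest at every nitrogen level.

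The cluster Ta.13232 gave 1.37 (Ta.13232.2.S1_at, 11 of 12 pairs) and 1.31 (Ta.13232.1.S1_at, 12 of 12). For Ta.13232.1.S1_at in 2010 the 18 arrays ran from 7.83 to 9.29 (median 8.75) at N100, from 9.54 to 10.79 (median 10.19) at N200 and from 8.99 to 11.65 (median 10.92) at N350. Every N200 array of that season was above every N100 array, although the lowest N350 array was not. Ta.6770.1.S1_s_at, at 1.29, came close to a full separation in 2010, with 4.93 to 6.27 (median 5.47) at N100 and 6.27 to 8.41 (median 7.27) at N350.

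Ta.13989.1.S1_at differed by 1.18 and was the member with the largest difference in 2009, at 1.08, against 1.28 in 2010. Its arrays ran from 7.69 to 10.24 (median 9.41) at N100 and from 9.19 to 11.31 (median 10.36) at N350 in 2009, and from 6.94 to 9.67 (median 8.17) and from 7.73 to 10.42 (median 9.80) in 2010. The nitrogen levels overlapped in both seasons, as did the seasons at each nitrogen level. The medians of these deposited values were lower in 2010. As the seasons looked normalized separately, the season difference at N200 is given further below on centred values. TaAffx.143995.24.S1_at differed by 1.11 in 10 of 12 pairs, with pairs from -0.44 to 3.02. Ta.6744.2.S1_s_at differed by 1.03, with pairs between 0.50 and 1.64.

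**Figure D2:**
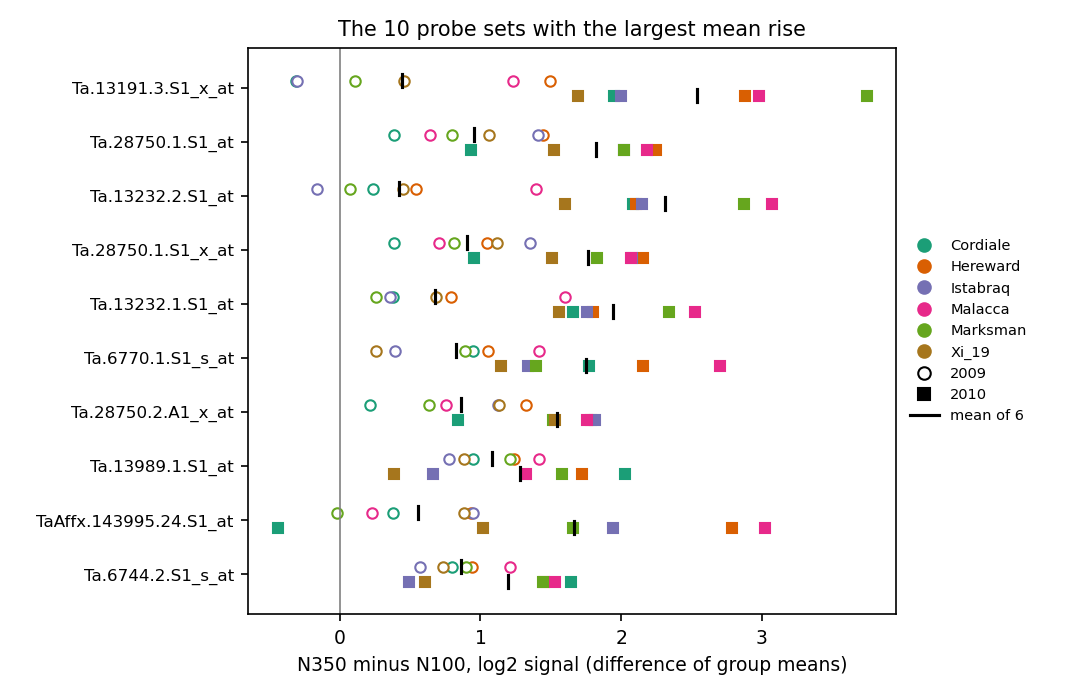
N350 minus N100 (log2 signal, x axis) of the 10 probe sets with the largest mean difference (rows), with a point for each cultivar in 2009 (open circles) and 2010 (filled squares) at Rothamsted and a bar at the mean of 6 cultivars. The 2010 mean lies to the right of the 2009 mean in all 10, by 2.10 in Ta.13191.3.S1_x_at and by 0.20 in Ta.13989.1.S1_at.

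The probe sets with gene entries had differences between 0.56 and 0.64, around the median of the members, and the residual SD between plots was 0.15 and 0.14 for the LOC542918 probe sets and 0.57 for LOC543201, against a member median of 0.29. For Ta.9402.1.S1_at (LOC542918, 0.64) the arrays in 2010 ran from 12.16 to 12.91 (median 12.59) at N100, from 12.94 to 13.57 (median 13.21) at N200 and from 13.15 to 13.75 (median 13.41) at N350. No N350 or N200 array reached down to the N100 arrays in that season, whereas in 2009 they overlapped, with 12.26 to 13.23 (median 12.69) at N100 and 12.73 to 13.38 (median 13.16) at N350. The other LOC542918 probe set, Ta.9402.1.S1_x_at, gave 0.60. Ta.5024.1.S1_x_at (LOC543201) differed by 0.62 in 10 of 12 pairs and Ta.21350.2.S1_at (LOC543150) by 0.56 in all 12. Every N350 array lay above every N100 array in 7 of the 81 probe sets in 2010, against 10 of all the brighter probe sets (0.041%), and in 0 in 2009 (0%). As the rule used this difference, nothing is read from these shares.

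Several clusters held more than 1 member, each kept by the same minimum difference. The 3 probe sets of Ta.23909 gave 0.63, 0.62 and 0.57, with 0.32, 0.31 and 0.26 in 2009 and 0.94, 0.94 and 0.88 in 2010. In the cluster Ta.6175 the differences were 0.62 (Ta.6175.2.A1_x_at), 0.52 (Ta.6175.1.S1_at) and 0.51 (Ta.6175.1.S1_x_at). Ta.6744.1.S1_at, at 0.89, stood beside 1.03 in Ta.6744.2.S1_s_at. As they may share transcripts, the members of a cluster are not independent measurements.

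The mean over all 81 probe sets on each array, which sums up what the rule picked, ran from 7.98 to 8.69 (median 8.20) at N100, from 8.73 to 9.22 (median 9.00) at N200 and from 8.62 to 9.64 (median 9.29) at N350 at Rothamsted in 2010. In 2009 the medians were 8.45, 8.87 and 8.97. The RAGT arrays at N200 had a median of 8.87 in 2010, and in 2011 the medians at N200 were 9.30 at Rothamsted and 9.26 at RAGT. These are means of deposited values that were not centred. As the seasons looked normalized separately, these levels are not compared between seasons.

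By season, the median difference was 0.42 in 2009 (from 0.18 to 1.08) and 0.85 in 2010 (from 0.47 to 2.54). It was larger in 2010 in 78 of 81 probe sets, and at least 2 times as large in 38. The change from 2009 to 2010 was greatest in Ta.13191.3.S1_x_at (from 0.45 to 2.54) and Ta.13232.2.S1_at (from 0.42 to 2.31). It was smallest in Ta.12413.1.S1_at (from 0.69 to 0.47) and Ta.21350.2.S1_at (from 0.58 to 0.55), which belong to the 3 probe sets with the larger difference in 2009. All 5 arrays far from their group mean are in the 2009 season, and the rule applied without them kept 76 of the 81.

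**Figure D3:**
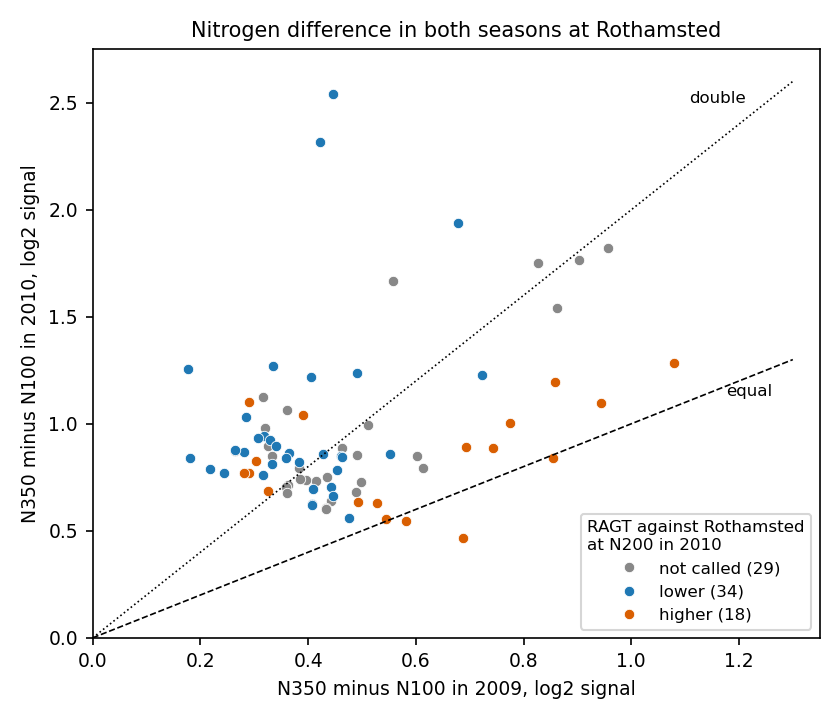
N350 minus N100 (log2 signal) of the 81 probe sets in 2009 (x axis) and 2010 (y axis) at Rothamsted, 1 point per probe set, coloured by the call of RAGT against Rothamsted at N200 in 2010; the dashed line marks equal differences and the dotted line a 2010 difference 2 times that of 2009. Points lie above the dashed line for 78 probe sets. These are all 34 that were lower at RAGT in 2010, all 29 not called and 15 of the 18 higher.

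By cultivar, Malacca had the largest nitrogen difference, averaged over both seasons, in 43 of the 81 probe sets. Its median was 0.59 in 2009 and 1.18 in 2010. Hereward had medians of 0.58 and 0.91 and the only difference above 0 in all 81 probe sets in both seasons, with Marksman (0.32 and 0.99) above 0 in 78 and 81. The medians were lower in Cordiale (0.43 and 0.64), Istabraq (0.36 and 0.66) and Xi_19 (0.33 and 0.65), and these 3 cultivars held the smallest difference in 26, 24 and 23 probe sets.

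The range over cultivars was widest in Ta.9226.1.S1_at, at 2.26, and TaAffx.143995.24.S1_at, at 1.89. In Ta.9226.1.S1_at the difference was 2.30 in Malacca and 0.04 in Istabraq. The 3 Malacca plots at N100 gave 7.56, 7.80 and 6.86 in 2009 and 9.50, 10.49 and 10.14 in 2010, and the N350 plots gave 7.93, 10.62 and 10.92 in 2009 and 11.71, 11.94 and 13.04 in 2010. The N350 plots of Malacca were above its N100 plots in each season, while 1 of them in 2009 lay close to the highest N100 plot. For TaAffx.143995.24.S1_at the extremes were 1.86 in Hereward and -0.03 in Cordiale.

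**Figure D4:**
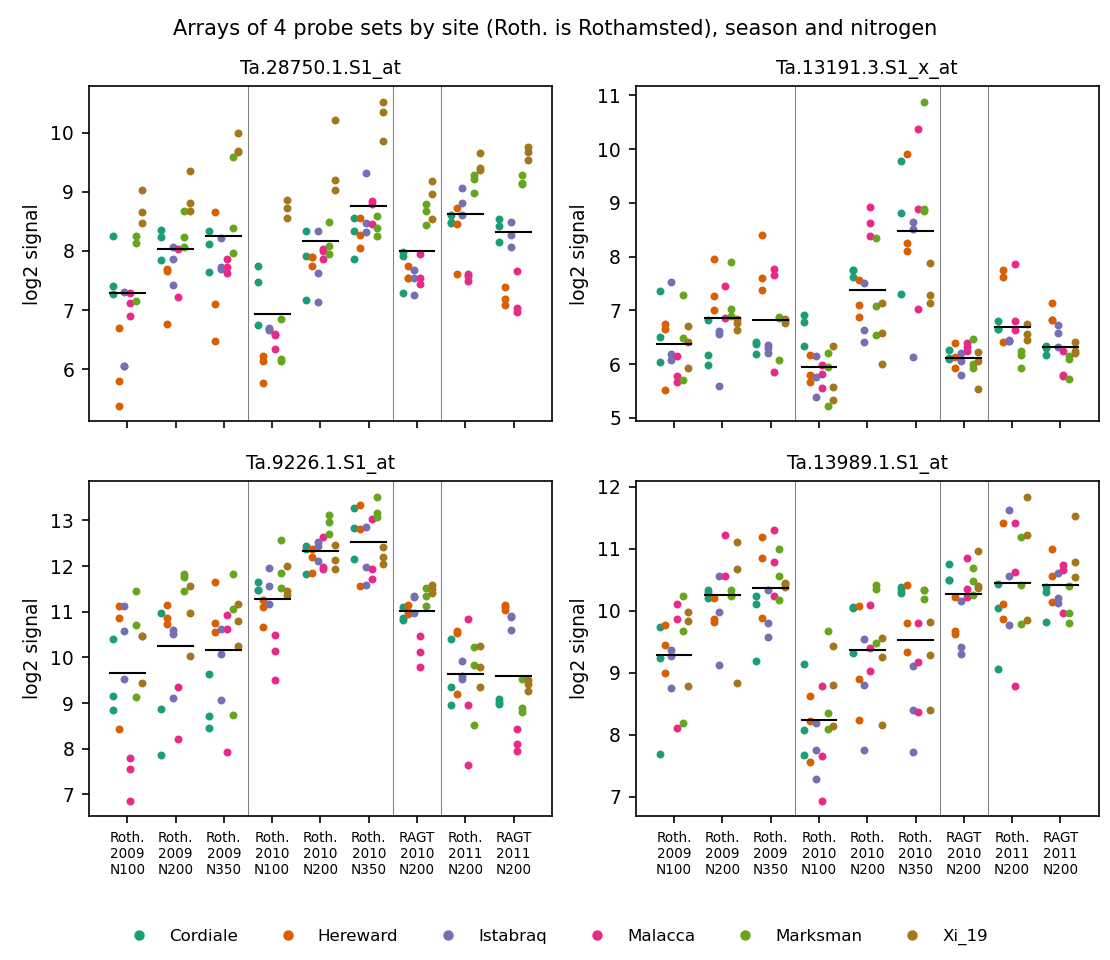
Log2 signal of every array (points, coloured by cultivar) of 4 probe sets in the 9 combinations of site, season and nitrogen supply, with a bar at the mean of the 6 cultivar groups. Ta.28750.1.S1_at shows the Xi_19 plots at the top of the Rothamsted 2010 columns, and Ta.9226.1.S1_at and Ta.13989.1.S1_at differ in opposite directions between Rothamsted 2010 and both RAGT 2010 and Rothamsted 2009 at N200. Both comparisons use the same Rothamsted 2010 arrays, so they are not independent.

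The share of the N350 minus N100 difference that was reached at N200 had a median of 78.5% and ran from 34.8% to 110%, with 15 probe sets at 90% or more and 7 below 50%. As this share is taken over the difference that chose the members, it is given as a description. The level at N200 was set against the mean of N100 and N350 with limma's moderated test over all 61178 probe sets, a contrast that carries none of the N350 minus N100 difference. N200 was above this midpoint in 24 of the 81 probe sets and below it in 0 at an adjusted p under 0.05, and 57 were not called. A straight line over dose would put N200 at 40% of the difference, as 200 kg per ha lies below the dose midpoint of 225 kg per ha. Among the brighter probe sets 0.242% were called above and 0.16% below. As these were not picked for a nitrogen difference, their shares are not a like background for the shape of the response. The median of the members was 0.18 against -0.01 for these probe sets, and 74 of 81 members were above 0.

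The count depended on which plots were in the fit. It was 13 with only the Rothamsted 2009 and 2010 arrays in the fit, and 7, 2 and 15 without replicate 1, 2 or 3. The largest called values were 0.43 in Ta.6744.2.S1_s_at (SE 0.10, adjusted p = 0.0271 in limma) and 0.43 in Ta.13232.1.S1_at (SE 0.09, adjusted p = 0.00851). For Ta.6744.2.S1_s_at the arrays in 2010 ran from 9.82 to 12.34 (median 11.18) at N100, from 11.16 to 13.01 (median 12.42) at N200 and from 11.20 to 13.13 (median 12.59) at N350. N200 and N350 covered nearly the same range and N100 lay below them with some overlap. Over 10 other settings the adjusted p ran up to 0.723 for Ta.6744.2.S1_s_at, which passed in 6, and up to 0.557 for Ta.13232.1.S1_at, which passed in 7. Both LOC542918 probe sets were called, Ta.9402.1.S1_at at 0.17 (adjusted p = 0.00224 in limma) and Ta.9402.1.S1_x_at at 0.16 (adjusted p = 0.0021).

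The step from N100 to N200 had a median of 0.36 in 2009 and 0.63 in 2010. The mean at N200 was above that at N350 in 25 probe sets in 2009 and in 2 in 2010. The lowest shares at N200 among the named probe sets were 36.1% in Ta.3249.1.S1_at and 48.8% in Ta.24730.2.S1_x_at, and the highest of all members was 110% in Ta.5024.1.S1_x_at. Whether the shape of the response differed between seasons was not tested.

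The site comparison asks how the same 6 cultivars at N200 differed between RAGT and Rothamsted, and in 2010 the probe sets raised by nitrogen went both ways. RAGT was higher in 18 of 81 and lower in 34, and 29 were not called, beside 18.6% called higher and 26.7% called lower among the brighter probe sets. The group mean at RAGT lay above the Rothamsted N350 mean of that year in 20 probe sets and below the Rothamsted N100 mean in 9, counts that rest on means the rule used and are given as a description.

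The largest higher values were in Ta.23095.1.S1_at and Ta.4399.1.S1_x_at. Ta.23095.1.S1_at ran from 6.30 to 8.79 (median 7.57) on the RAGT arrays and from 5.68 to 7.42 (median 6.68) on the Rothamsted arrays. Ta.4399.1.S1_x_at ran from 8.45 to 10.03 (median 9.35) at RAGT and from 6.97 to 9.24 (median 8.33) at Rothamsted. Both overlapped between the sites, with the medians at RAGT above. The differences were 1.07 (SE 0.22, adjusted p = 6.02e-05 in limma) and 0.91 (SE 0.20, adjusted p = 0.000259), and the second was 0.48 without replicate 1 (adjusted p = 0.136).

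Ta.5024.1.S1_x_at (LOC543201) and Ta.9226.1.S1_at had the largest lower values. For Ta.5024.1.S1_x_at the arrays ran from 7.16 to 8.60 (median 7.75) at RAGT and from 8.13 to 10.48 (median 9.48) at Rothamsted. For Ta.9226.1.S1_at they ran from 9.79 to 11.58 (median 11.12) at RAGT and from 11.82 to 13.12 (median 12.38) at Rothamsted. The sites overlapped little in the first and not at all in the second. The differences were -1.55 (SE 0.18, adjusted p = 6.43e-11 in limma) and -1.31 (SE 0.22, adjusted p = 1.66e-06).

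In 2011 the sites were closer. RAGT was higher in 6 probe sets and lower in 2, beside 8.86% higher and 2.14% lower among the brighter probe sets. The count of 8 was 14, 4 and 3 without replicate 1, 2 or 3, and 25, with 9 higher and 16 lower, with only the arrays compared in the fit. Both probe sets of the cluster Ta.24155 were higher, by 0.62 in Ta.24155.2.S1_s_at (SE 0.09, adjusted p = 2.72e-07 in limma) and by 0.58 in Ta.24155.2.S1_x_at (SE 0.09, adjusted p = 1.67e-06). For Ta.24155.2.S1_s_at the arrays ran from 9.82 to 11.65 (median 11.15) at RAGT and from 8.88 to 11.47 (median 10.33) at Rothamsted, wide and overlapping ranges. Ta.25609.1.S1_at was lower by 0.74 (value -0.74, SE 0.09, adjusted p = 9.07e-10), with 6.14 to 7.45 (median 6.92) at RAGT and 6.75 to 8.60 (median 7.65) at Rothamsted. TaAffx.106818.1.S1_at was at -0.23 (adjusted p = 0.0489), and passed in 6 of 10 other settings, where its adjusted p ran from 0.00486 to 0.391.

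The difference between sites changed from 2010 to 2011 in 38 probe sets, upwards in 21 and downwards in 17, beside 27.3% upwards and 14.4% downwards among the brighter probe sets. The largest changes were 1.62 in Ta.5024.1.S1_x_at (SE 0.26, adjusted p = 1.02e-06 in limma), 1.27 in Ta.9226.1.S1_at (SE 0.32, adjusted p = 0.00127), -1.27 in Ta.23095.1.S1_at (SE 0.31, adjusted p = 0.00104) and -1.14 in Ta.6744.1.S1_at (SE 0.23, adjusted p = 9.73e-05). Without replicate 2 the last pair fell to -0.88 and -0.90 and missed the threshold (adjusted p = 0.119 and 0.0544 in limma), and the count fell to 20, with 18 upwards and 2 downwards. Named after their values were seen, 4 probe sets were called lower at RAGT in 2010 and higher in 2011: Ta.2631.1.S1_at, Ta.2631.3.S1_x_at, Ta.13379.1.S1_at and Ta.12333.1.A1_at. In Ta.2631.1.S1_at the difference was -0.58 in 2010 (SE 0.09, adjusted p = 1.51e-07) and 0.40 in 2011 (SE 0.09, adjusted p = 0.00128).

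**Figure D5:**
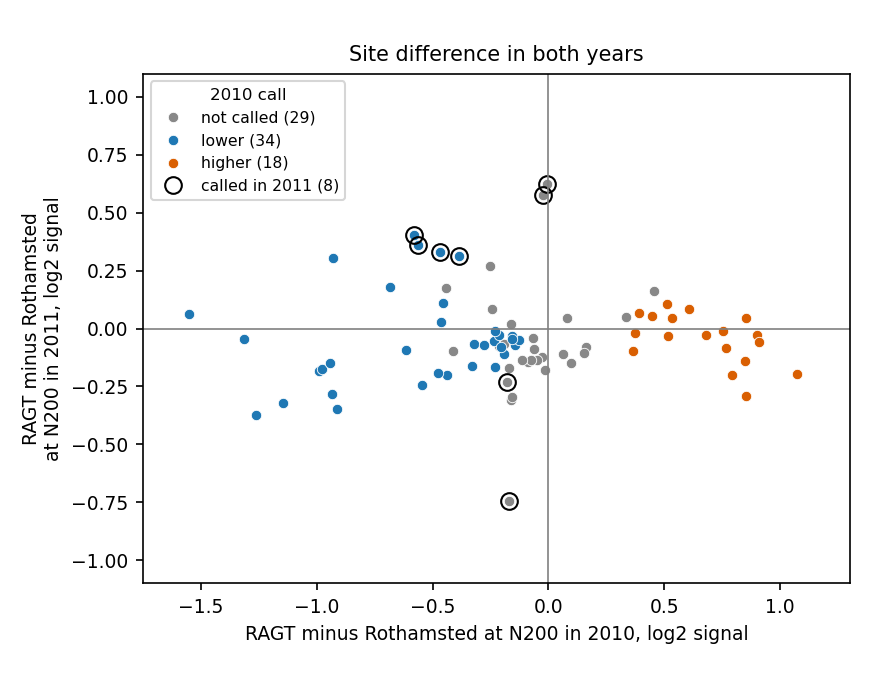
RAGT minus Rothamsted at N200 (log2 signal) of the 81 probe sets in 2010 (x axis) and 2011 (y axis), 1 point per probe set, coloured by the 2010 call, with a ring around the 8 called in 2011. The points spread from -1.55 to 1.07 along the 2010 axis and from -0.74 to 0.62 along the 2011 axis, and 4 ringed points that were called in both years lie to the left of 0 in 2010 and above 0 in 2011.

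Between seasons at Rothamsted the N200 arrays were compared after centring each array on its median, because the deposited values looked normalized separately by season. In 2010 against 2009, 44 of the 81 probe sets were higher, 7 lower and 30 not called, beside 50.6% higher and 11.7% lower among the brighter probe sets, so the members' share of higher calls was near the background. The split depended on the scaling: it was 32 higher and 17 lower with the values as deposited, 32 and 16 when centred on the brighter probe sets, and 32 and 12 after quantile normalization. The median of the brighter probe sets was itself shifted by 0.13 after centring, against 0.25 for the members.

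Ta.9226.1.S1_at was higher by 2.25 in 2010 (SE 0.23, adjusted p = 1.46e-15 in limma), with deposited N200 values from 7.85 to 11.83 (median 10.73) in 2009 and from 11.82 to 13.12 (median 12.38) in 2010. Ta.5024.1.S1_x_at was higher by 1.77 (SE 0.19, adjusted p = 2.15e-14), with 5.66 to 9.37 (median 7.81) in 2009 and 8.13 to 10.48 (median 9.48) in 2010. The 2009 plots of both were spread widely, and the 2010 plots lay within or above the upper part of that spread. Ta.13989.1.S1_at and Ta.4399.1.S1_x_at were at -0.71 (SE 0.21, adjusted p = 0.00293 in limma) and -0.67 (SE 0.21, adjusted p = 0.00388). Without replicate 1 these were -0.21 and -0.20, with adjusted p = 0.487 and 0.517.

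In 2011 against 2010, 42 were higher, 26 lower and 13 not called, beside 47.7% higher and 29.8% lower among the brighter probe sets. With the values as deposited the split was 48 and 21. Ta.3249.1.S1_at was higher by 2.85 (SE 0.25, adjusted p = 9.15e-20 in limma) and Ta.24730.2.S1_x_at by 2.43 (SE 0.22, adjusted p = 3.02e-18). The deposited values of Ta.3249.1.S1_at ran from 4.31 to 7.17 (median 5.90) in 2010 and from 8.02 to 10.06 (median 8.87) in 2011, with no overlap. Ta.9226.1.S1_at was at -2.88 (SE 0.22, adjusted p = 7.06e-23), back to between 7.65 and 10.84 (median 9.69). Ta.23322.3.S1_at was at -2.68 (SE 0.17, adjusted p = 5.35e-28), with 4.58 to 9.34 (median 8.21) in 2010 and 3.10 to 6.88 (median 5.24) in 2011.

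Sorted by the 2010 site call, the nitrogen difference of the 34 members lower at RAGT had medians of 0.39 in 2009 and 0.86 in 2010, and that of the 18 higher at RAGT 0.56 and 0.83. The season contrasts and the midpoint contrast share the Rothamsted 2010 arrays at N200 with this sorting, so their calls are not compared between the classes.

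Markers of the embryo and aleurone also differed in the 2010 site contrast and the season contrasts, each of which uses the Rothamsted 2010 arrays at N200. The 14 probe sets of this list (EM, EMH2, Rab15, LEA1 and PER1, genes of seed maturation, WGA2, an embryo lectin, and GA20ox1d, a gibberellin oxidase that the name pattern also took) held none called between N350 and N100. Of all 61178 probe sets 10.7% were called higher and 12.3% lower in that contrast. At RAGT in 2010, 11 of 14 were lower and 0 higher, with a median of -1.56. Among the brighter probe sets 26.7% were lower and 18.6% higher there. The mean over the list ran from 7.47 to 8.91 on the RAGT arrays and from 8.11 to 10.40 on the Rothamsted N200 arrays of that year. In 2010 against 2009, 11 of 14 were higher and 2 lower (median 1.59), beside 50.6% higher and 11.7% lower among the brighter probe sets. In 2011 against 2010, 12 were lower and 2 higher (median -3.57), beside 29.8% lower and 47.7% higher among the brighter probe sets. The mean over the list ran from 6.32 to 7.24 at Rothamsted in 2011. Markers of dividing cells, the 18 histone probe sets, were all higher in 2011 than in 2010 (median 0.95). Of 32 green pericarp probe sets, 27 were higher and 4 lower (median 0.30). The median of all probe sets in that contrast was 0.14. At RAGT in 2010, 17 of the green pericarp list were higher, all of them rbcl probe sets, and 1 was lower, that of PRK at -0.20 (adjusted p = 0.00312 in limma), while PsbO was at -0.11 and the PsbP probe sets at -0.04 and -0.07. Only 9 of the 32 had a mean of at least 6, so the shares of the brighter probe sets do not cover the others. The mean over the list ran from 5.27 to 5.55 at RAGT and from 5.06 to 5.53 at Rothamsted. These lists include no member, the lowest list mean on any array was 5.06, in the green pericarp list, and their part in the site and season results was not tested.

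Between cultivars at N200, averaged over the 5 combinations of site and season, 69 of the 81 probe sets differed by limma's F test, beside 67.7% of the brighter probe sets. The range of the 6 cultivar means had a median of 0.66 in the members and 0.24 in the latter. As the brighter probe sets were not picked for a size of difference, their median is not a like background. The range was widest, at 3.33, in Ta.23322.3.S1_at. Its means were 3.82 in Istabraq and 4.28 in Hereward, and between 6.59 (Xi_19) and 7.15 (Marksman) in the other 4 cultivars. This probe set reached the minimum mean (6.24 over all arrays) only through those 4 cultivars, so its range is a description. The highest array of Istabraq (4.73) was below the lowest of Cordiale (5.05), Malacca (5.08) and Xi_19 (4.93). The members of the cluster Ta.28750 were highest in Xi_19: the means of Ta.28750.1.S1_at ran from 7.60 in Malacca and 7.66 in Hereward to 9.29 in Xi_19 (range 1.69, adjusted p = 7.41e-23), and the range of Ta.28750.1.S1_x_at was 1.64 (adjusted p = 8.58e-23). Ta.21350.2.S1_at (LOC543150) ran from 6.55 in Hereward to 8.14 in Cordiale (range 1.58, adjusted p = 1.49e-21). Neighbours in these orders such as Malacca and Hereward in Ta.28750.1.S1_at lay within the spread of their arrays.

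Xi_19 had the highest N200 mean in 25 members and Istabraq in 2, while Istabraq had the lowest in 22 and Hereward in 18. Malacca, which had the largest nitrogen difference in 43 members, had the highest N200 level in 17 and the lowest in 14.

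Among named genes outside the members, those of the grain's storage and defence proteins were tested for N350 against N100, beside 10.7% of all 61178 probe sets called higher and 12.3% called lower. All 5 serpin probe sets were higher (median 0.88, against 0.01 for all probe sets). Serpins block serine proteases and are abundant in wheat endosperm, and WSZ1c (1.40), WSZ2a (1.15) and WSZ2b (0.88) met the size and sign rule themselves and were dropped by their ID. Their calls rest on the difference that the rule used and are given as a description. The WSZ1b probe sets, at 0.30 and 0.23, did not meet the rule. Of 11 gluten storage protein probe sets, 7 were higher and 0 lower (median 0.10). Among those higher was a probe set of the gamma gliadin GAG56D at 0.44 (SE 0.03, adjusted p = 2.84e-25 in limma). The other GAG56D probe sets were at 0.22, called higher, and at 0.13, not called (adjusted p = 0.172 in limma). Also higher were the alpha gliadin Gli-B2-11 at 0.32 and a Gli-D2-1 probe set at 0.78, the latter also dropped by its ID. The probe set at 0.78 met the rule too, so its call is likewise a description. The other Gli-D2-1 probe set was at 0.09 (adjusted p = 0.000228 in limma). The 3 probe sets of Glu-D3, a low-molecular-weight glutenin, were between -0.05 and 0.04 and not called.

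Other seed proteins went the opposite way. Of 6 avenin-like probe sets, 5 were lower and 0 higher (median -0.37), and all 5 amylase and protease inhibitor probe sets were lower (median -0.13), with the chymotrypsin inhibitor wci at -0.52 (SE 0.04, adjusted p = 8.64e-19 in limma). Of 35 photosynthesis probe sets, which include PFK and IVR1 through an ambiguous name pattern, 9 were higher and 0 lower (median 0.07). Most of the 35 belonged to rbcl, and only 10 had a mean of at least 6. The brightest rbcl probe sets were at 0.003 and -0.01 and not called. Those higher include PsbP and PsbO, proteins of photosystem II, at 0.28 and 0.24 (adjusted p = 1.09e-07 and 2.6e-06 in limma). Of 2 starch synthesis probe sets, Wx-A1 was lower (-0.12, adjusted p = 0.00236) and AGP-S, a subunit of ADP-glucose pyrophosphorylase, was at 0.03 (adjusted p = 0.560). The only probe set of the protein folding list, the small heat shock protein hsp16.9A, was at -0.44 (adjusted p = 0.163), and no name of the nitrogen assimilation list matched the annotation. No probe set of these lists is a member.

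Across the 161 arrays, after subtracting each group's mean, pairs of members had a median Pearson correlation of 0.12 (Spearman 0.12), against -0.02 between members and the other brighter probe sets. These correlations are across plots, describe shared deviations that can include array quality, and carry no test. The median was 0.38 among the 18 members higher at RAGT in 2010, 0.34 among the 34 lower there and -0.08 between the 2 classes. The named probe sets whose plot deviations were most like the members' were those of WSZ2a (median Pearson 0.27 over the 81), WSZ1c (0.26), LEA1 (0.26), WSZ2b (0.25) and 1 of WSZ1b (0.21). The other WSZ1b probe set was at 0.12, near the median between members.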

How the data were processed

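Groups were read from the labels of the 161 arrays; replicates are plots that the labels call biological replicates. The authors deposited log2 signals per probe set made with RMA, per the submitters' processing notes; no version, and no word on whether seasons were normalized jointly, is given in the sources used here. The array number limits the precision of every value, and single-probe signals were not analysed here.

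The members and gene lists were chosen with earlier results of these data known. limma 3.58.1 in R 4.3.3 fitted a mean to each of 54 groups (107 residual degrees of freedom) over 61178 probe sets; moderated two-sided tests got Benjamini-Hochberg adjusted p-values over all of them and were called at an adjusted p under 0.05. Season contrasts used values centred on each array's median. P-values measure the spread between plots. The methods were tested on simulated data.

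Named members were those with a gene entry, the 10 largest nitrogen differences, 2 on either side of the threshold, the 2 largest called per test and direction (4 for cultivars), and the extremes of the change between seasons and of the range over cultivars. Gene names come from the platform annotation, which gave 1 gene to 1273 probe sets, updated through RefSeq. Named probe sets for the correlations between plots were those with an informative gene name and a mean of at least 6. No sequences or positions were used here. Other settings were quantile normalization, centring, an intensity trend, a minimum mean of 6, only the arrays compared, a replicate block and each replicate left out, and, added after seeing the data, leaving out 5 arrays far from their group mean.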

Additional observations from a re-analysis of the deposited data

Results flagged for a closer look

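The difference between RAGT and Rothamsted at N200 was tested for a change between the years with limma. It was called upwards from 2010 to 2011 in 21 of the 81 probe sets and downwards in 17. Among the brighter probe sets 27.3% were called upwards and 14.4% downwards, so such a change was not particular to the members. The 4 probe sets given here had the 2 largest called changes in each direction. The change from 2010 to 2011 was 1.62 in Ta.5024.1.S1_x_at and 1.27 in Ta.9226.1.S1_at, both lower at RAGT in 2010 (-1.55 and -1.31) and at 0.06 and -0.05 in 2011. It was -1.27 in Ta.23095.1.S1_at and -1.14 in Ta.6744.1.S1_at, both higher at RAGT in 2010 (1.07 and 0.85) and at -0.20 and -0.29 in 2011. The first pair passed the threshold in all 10 other settings, and the second pair in 9 of 10.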

How the results depend on the processing

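Other settings moved 11 counts by over 1.5 times and left 80 within it; of the values of named members 302 kept their direction and call, 16 kept the direction but missed the threshold, and none changed direction. The members numbered 51 when all 12 pairs had to be above 0 and 45 with a minimum difference of 0.6. The same rule gave 63 to 107 probe sets with 1 replicate left out, of which 56 to 72 were members. Calls of N200 above the midpoint numbered 13 with only the arrays compared and 2 to 15 with 1 replicate left out. Site calls in 2011 numbered 25 with only the arrays compared (9 higher, 16 lower) and 3 to 14 with 1 replicate left out, and calls of the site change 20 to 36. The cause was not tested. With a replicate block within each site and season the counts were 29 for the midpoint, 53 and 9 for the sites in 2010 and 2011, 42 for their change, 54 and 68 for the seasons and 74 for the cultivars, and no named call changed. In Rothamsted 2009 the deviations of same-numbered plots had a median correlation of 0.168 (lowest -0.732), against -0.082 for different numbers, and 73.6% of arrays correlated best with their own number; in the other sets of site and season this share was between 27.8% and 72.2%. Not every pair exceeded 0.1 and the labels name no shared source, so the numbers were not taken as pairs. Without the 5 arrays far from their group mean, the rule gave 85 probe sets and the midpoint 22 calls.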

Other observations

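Ta.242.2.S1_at, named after its values were seen, is a member with a mean of 13.16 whose ID cluster also holds Ta.242.1.S1_at, the AGP-S probe set. The annotation gives Ta.242.2.S1_at no gene. Its nitrogen difference was 0.57 (10 of 12 pairs), against 0.03 for the AGP-S probe set (SE 0.03, adjusted p = 0.560 in limma), so the cluster number did not stand for a shared difference. More widely, 94 of the brighter probe sets shared a cluster with a member without being one. Of these, 51 (54.3%) had a difference above 0, against 37.1% of all the brighter probe sets, and their median was 0.05 against -0.03. Their differences ran from -0.38 to 1.68, the highest having missed the rule on sign. As the rule used this difference and these probe sets may share transcripts with members, nothing is read from the excess.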
